A study of Mus musculus with 18 samples.

Results

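The 10 genes described here are core parts and direct outputs of the circadian clock, namely Per1, Per2, Per3, Nr1d1, Nr1d2, Dbp, Tef, Hlf, Arntl and Clock. They were taken by symbol, and all 10 were found among the 15410 gene symbols of the colon and dorsal horn count tables. RNA was sequenced from the colon and from the dorsal horn of the spinal cord, where sensory fibres end, in a mouse study of bone cancer pain and PD-1 blockade. All mice were wild type and fell into 3 groups with 3 libraries per tissue, which makes 18 libraries. Sham mice were given control IgG, cancer mice had bone cancer and were given control IgG, and nivolumab mice had bone cancer and were given nivolumab, a therapeutic human antibody to PD-1. Mouse strain, age and sex, the tumour cells and the hour of tissue collection are not stated in the labels. Nothing in the labels ties a library to a single animal, so p-values measure no more than sample-to-sample spread, part of which may be technical.

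In mammals the clock is a feedback loop of transcription. CLOCK and ARNTL (also called BMAL1) bind together to E-box sequences and drive the Per and Cry genes, the REV-ERB genes Nr1d1 and Nr1d2, and Dbp, and the PER and CRY proteins then inhibit the pair. The REV-ERB proteins repress Arntl through ROR elements, so Arntl transcripts peak at about the opposite time of day from Nr1d1 and Dbp, and the bZIP factors DBP, TEF and HLF act on D-box sequences in output genes and in Per genes. Dbp and Nr1d1 swing widely over the day in most organs, and Clock transcripts change little.

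Promoter sequences from RefSeq (GRCm38.p6), each running from 250 bases before to 50 bases after a transcript start, were matched by symbol for 9 of the 10 genes (all but Per2) and are shown for the genes on which the results below turn. Both strands were searched for the E-box CACGTG, its variant CACGTT, the D-box TTANGTAA, the ROR element core TAGGTCA and the cAMP element TGACGTCA, which do not contain one another. Capitals mark the match. Tef, the single member that passed the test without a replicate block in a treatment comparison, held an E-box in the windows of both of its starts, at -127 in the first (chr15:81802423-81802722, plus strand) and at -138 in the second (chr15:81811164-81811463, plus strand). Per3, whose Pearson correlation with Arntl over the 9 colon libraries was the most negative, held a D-box at -205 and another at -158 (chr4:151044616-151044915, minus strand). Arntl held a ROR element core at 31 bases after its second listed start (chr7:113207261-113207560, plus strand).
Tef, first start: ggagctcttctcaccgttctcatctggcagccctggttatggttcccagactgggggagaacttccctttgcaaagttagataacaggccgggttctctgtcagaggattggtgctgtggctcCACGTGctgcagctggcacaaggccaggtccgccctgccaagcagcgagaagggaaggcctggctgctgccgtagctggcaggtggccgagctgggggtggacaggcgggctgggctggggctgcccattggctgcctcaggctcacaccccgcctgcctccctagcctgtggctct
Tef, second start: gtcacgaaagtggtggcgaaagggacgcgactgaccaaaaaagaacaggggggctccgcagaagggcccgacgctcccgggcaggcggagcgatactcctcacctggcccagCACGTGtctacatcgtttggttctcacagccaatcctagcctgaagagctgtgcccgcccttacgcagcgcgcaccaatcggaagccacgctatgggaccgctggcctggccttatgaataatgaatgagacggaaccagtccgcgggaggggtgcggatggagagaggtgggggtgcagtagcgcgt
Per3: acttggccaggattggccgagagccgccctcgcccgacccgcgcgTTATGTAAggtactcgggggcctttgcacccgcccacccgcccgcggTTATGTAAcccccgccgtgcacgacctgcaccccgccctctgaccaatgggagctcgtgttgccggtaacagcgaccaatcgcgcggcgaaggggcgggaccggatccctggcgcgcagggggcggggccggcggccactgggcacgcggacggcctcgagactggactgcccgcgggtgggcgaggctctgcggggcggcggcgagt
Arntl, second start: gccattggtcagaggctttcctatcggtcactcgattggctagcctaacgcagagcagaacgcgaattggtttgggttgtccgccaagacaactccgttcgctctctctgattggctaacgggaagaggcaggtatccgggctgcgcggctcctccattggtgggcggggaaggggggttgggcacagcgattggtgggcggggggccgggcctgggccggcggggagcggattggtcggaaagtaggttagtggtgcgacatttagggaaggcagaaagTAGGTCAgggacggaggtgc

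Among the other members, Per1 held an E-box at -166, Nr1d1 the E-box variant, read as AACGTG, at -28, and Hlf the cAMP element at -9. The windows of Dbp, Nr1d2 and Clock held none of these letters, which says nothing about binding elsewhere in those genes. Of 32851 mouse promoters of the same length, 7.15% held the E-box, 4.68% the variant, 2.32% the D-box, 2.61% the ROR core and 1.79% the cAMP element. A match is a description of the sequence and not a measured binding site.

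Depth was 20896854 to 30803957 counts per colon library and 21855085 to 29071908 per dorsal horn library. The members had at least 108 counts in every colon library and at least 330 in every dorsal horn library, and all 10 passed the filter on low counts in both tissues. Markers of the labelled tissues were present: 8 colon epithelium markers summed to 12570 to 32457 CPM (counts divided by library size, with TMM factors set within a tissue) in the colon, and 9 dorsal horn neuron markers to 1092 to 1632 CPM in the dorsal horn. Other cell types varied between libraries. Summed over 7 smooth muscle markers, the colon held 1361 to 20025 CPM in sham, 6515 to 22388 in cancer and 2881 to 4525 in nivolumab libraries. Summed over 12 dorsal root ganglion neuron markers, the dorsal horn held 160 to 663 CPM in sham, 138 to 717 in cancer and 1255 to 2011 in nivolumab libraries, and sham 3 and cancer 3 stood above the other libraries of their groups. Oligodendrocyte markers of the dorsal horn were lowest with cancer (25806 to 36887 CPM), against 44879 to 50011 with nivolumab and 48101 to 58739 for sham. Red blood cell markers there were highest for sham (738 to 1274 CPM), against 109 to 221 with cancer and 220 to 291 with nivolumab. The part of these cell types in the differences between groups was not tested. Exons of Dbp shared 539 bases with Sphk2 on the opposite strand, 18.01% of its exon length. Those of Nr1d1 shared 263 bases with Thra, 8.55%. The labels state no strand setting for the counting, so reads from these stretches cannot be told apart. In the colon Sphk2 was lowest in cancer 1, at 59.9 CPM against 79.9 to 111 in the other libraries, and it passed in no treatment comparison. Thra passed only as lower in dorsal horn nivolumab against cancer (log2 fold change -0.24, edgeR adjusted p = 0.0439).

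The order of the members by level differed between the tissues. On the RPKM scale, which divides counts by exon length and depth, the median of the 9 colon libraries was highest for Nr1d1 at 31.1, followed by Nr1d2 at 14.8, Per1 at 10.9, Tef at 9.53, Dbp at 9.10, Per2 at 8.17, Clock at 6.67, Arntl at 3.91, Per3 at 3.48 and Hlf at 1.53. In the dorsal horn it was highest for Tef at 36.6, followed by Nr1d1 at 25.1, Nr1d2 at 21.2, Per1 at 14.96, Dbp at 12.8, Hlf at 9.85, Per3 at 7.06, Per2 at 5.88, Clock at 5.76 and Arntl at 2.08. Most neighbours in these orders were not separated. In the colon only Nr1d1 and Nr1d2 had ranges of RPKM that did not overlap, and in the dorsal horn only Clock and Arntl.

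In sham mice the output factor genes Hlf and Tef were higher in the dorsal horn than in the colon, and Arntl was lower. Hlf, a bZIP activator, had 70.6 ± 3.51 CPM (SD, n = 3) in sham dorsal horn and 8.30 ± 4.68 in sham colon, a log2 difference of 3.09 (SE 0.47, edgeR adjusted p = 3.21e-05). Tef had 310.0 ± 45.3 against 70.2 ± 5.39 CPM, a log2 difference of 2.14 (SE 0.37, edgeR adjusted p = 1.08e-04). Per3 was 2.34-fold and Per1 1.82-fold higher in the dorsal horn, and Nr1d2 1.47-fold higher (edgeR adjusted p = 0.0119, 0.0413 and 0.0404). Arntl, the activator, had 16.2 ± 1.15 CPM in sham dorsal horn and 37.4 ± 1.86 in sham colon, a log2 difference of -1.20 (SE 0.25, edgeR adjusted p = 5.22e-04), and its partner Clock differed by -0.40 (SE 0.16, adjusted p = 0.0357). Per2, Nr1d1 and Dbp did not pass the test, with log2 differences of 0.24, -0.35 and 0.42. In all, 7 of 10 members passed, 5 higher and 2 lower, and 8 of 10 did not overlap between the sham groups. Among all genes tested 75.2% passed, 37% higher and 38.2% lower, and 81.3% did not overlap, so the members' share was close to the background of 2 unlike tissues. The calls of Per1, Nr1d2 and Clock were each lost without single sham libraries, with adjusted p from 0.0533 to 0.137 in those fits. Whether a tissue held fewer cells of a type or less RNA per cell cannot be told apart in bulk samples, here or in any comparison below.

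**Figure D1:**
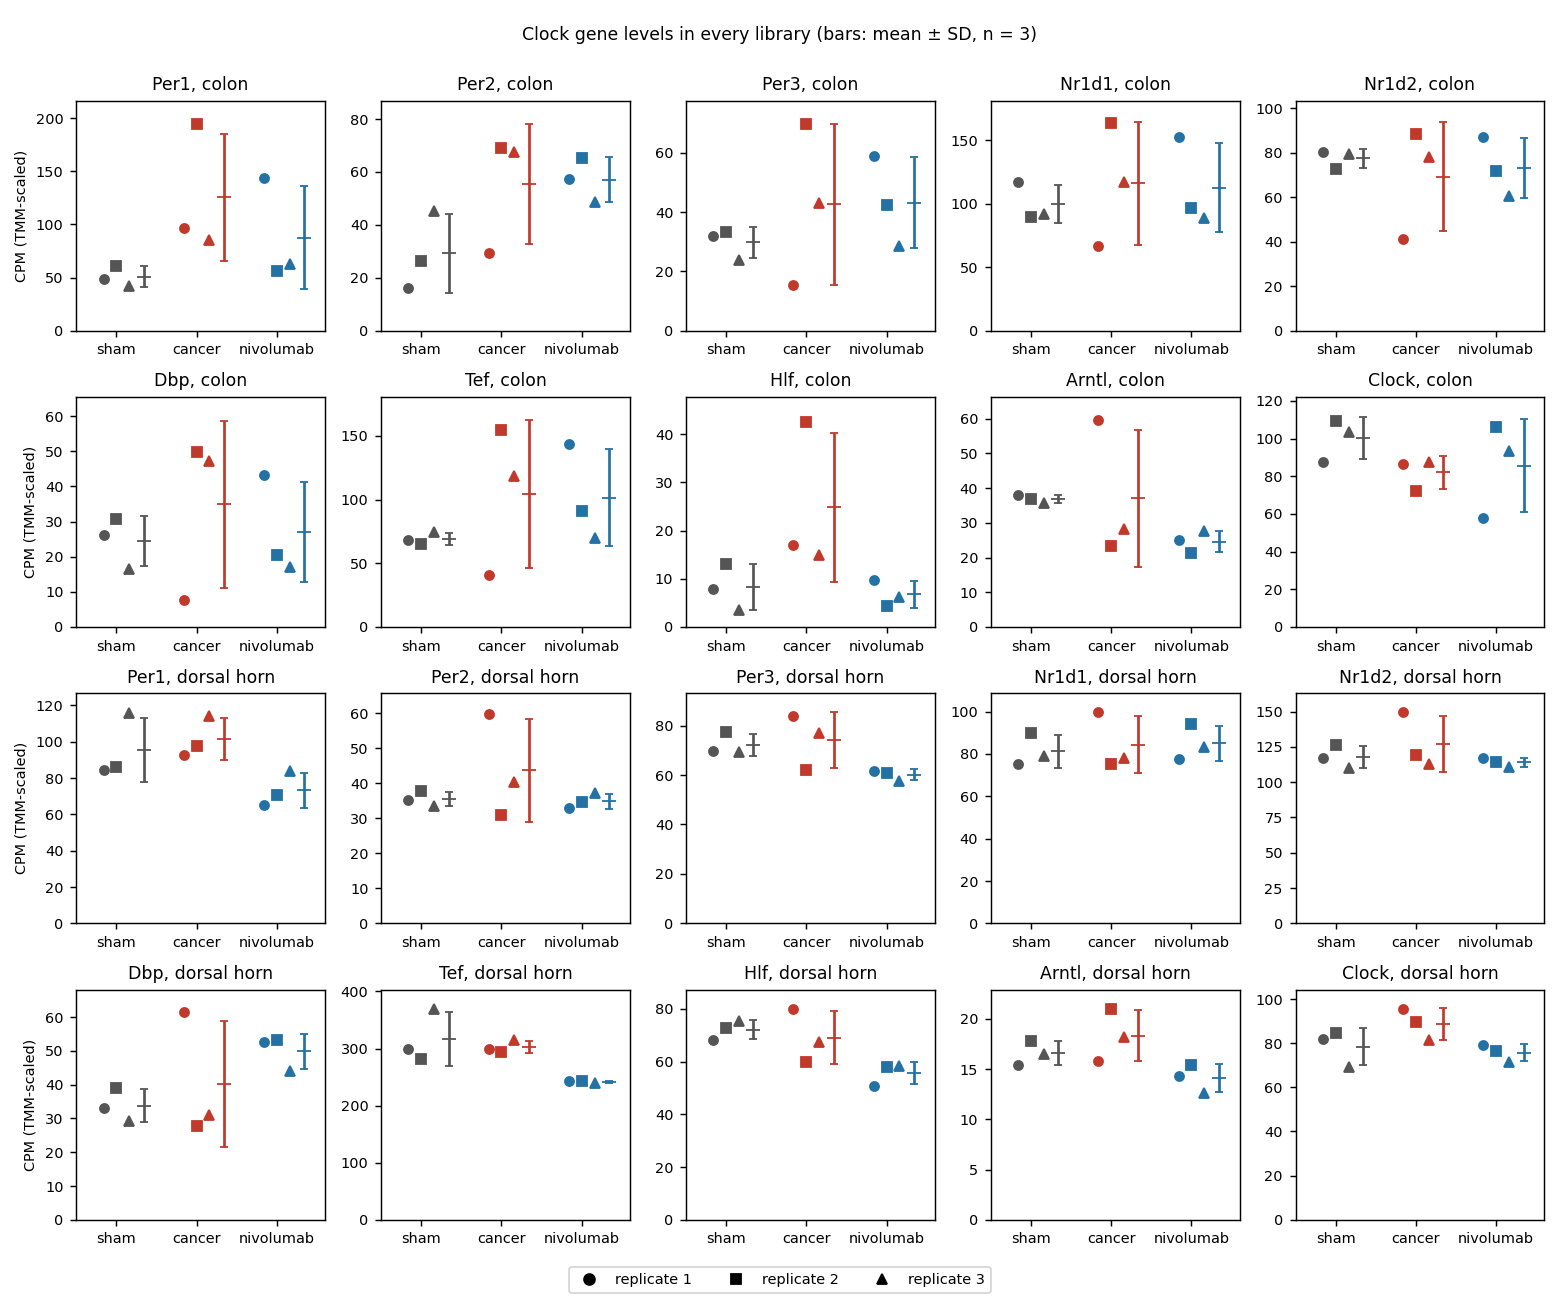
Level of each of the 10 clock genes in every library, as TMM-scaled CPM, with the colon in the upper rows and the dorsal horn in the lower rows. Symbols are replicates, coloured by group, and the bars beside them are the mean ± SD of 3 libraries. Colon cancer libraries spread widely, from 7.55 to 49.9 CPM for Dbp, while dorsal horn libraries of 1 group lie close together, as for Tef in the nivolumab group at 239 to 243 CPM.

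In the colon the members spread widely between libraries of a group, and none of them passed the test in any of the 3 comparisons. The SD of log2 CPM within groups had a median of 0.60 over the members, from 0.30 for Clock to 1.02 for Dbp, against a median of 0.30 over 11719 colon genes. Dbp varied more within groups than 92.7% of these genes. In cancer against sham, Per1 and Hlf were the members with the largest differences and the groups of both did not overlap.

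Among the activators, Arntl had 37.9, 36.8 and 35.8 CPM in colon sham 1, 2 and 3, 59.7, 23.3 and 28.2 in cancer 1, 2 and 3, and 24.9, 21.3 and 27.5 in nivolumab 1, 2 and 3. The sham libraries lay close together, cancer 1 was the highest of all 9 and the other cancer libraries were below sham. All nivolumab libraries were below all sham libraries, with a log2 fold change of -0.58 (SE 0.32, edgeR adjusted p = 0.835). Clock, the partner of ARNTL, ranged from 87.6 to 109 CPM in sham, from 72.1 to 87.8 in cancer and from 57.9 to 106 in nivolumab libraries, and had the narrowest span of the members in the colon.

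The Per genes encode the repressors of the loop. Per1 had 48.9, 61.2 and 42.1 CPM in sham, 96.8, 195 and 85.4 in cancer, and 143, 56.4 and 62.3 in nivolumab libraries. Every cancer library was above every sham library, and the nivolumab libraries overlapped both groups. The log2 fold change of cancer against sham was 1.31 (SE 0.43, unadjusted p = 0.0135, edgeR adjusted p = 0.337). Per2 had 15.9, 26.3 and 45.4 CPM in sham, 29.3, 69.2 and 67.7 in cancer, and 57.2, 65.4 and 48.5 in nivolumab libraries. All nivolumab libraries were above all sham libraries, with a log2 fold change of 0.97 (SE 0.42, edgeR adjusted p = 0.764), and cancer 1 lay among the sham values. Per3 had 32.1, 33.5 and 23.8 CPM in sham, 15.2, 69.6 and 42.9 in cancer, and 58.9, 42.3 and 28.4 in nivolumab libraries. Its lowest and its highest library were both in the cancer group.

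The REV-ERB genes, repressors of Arntl, were among the steadier members in the colon. Nr1d1 had 117, 89.9 and 91.8 CPM in sham, 67.1, 164 and 117 in cancer, and 153, 96.9 and 88.7 in nivolumab libraries. As with Per3, cancer 1 was the lowest and cancer 2 the highest library. Nr1d2 ranged from 72.8 to 80.2 CPM in sham, from 41.4 to 88.3 in cancer and from 60.5 to 87.1 in nivolumab libraries, with log2 fold changes of -0.16 for cancer against sham, 0.08 for nivolumab against cancer and -0.08 for nivolumab against sham.

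Among the output factor genes, Hlf had the largest colon difference of all members, in cancer against sham and in nivolumab against cancer. Dbp had 26.1, 30.7 and 16.5 CPM in sham, 7.55, 49.9 and 47.2 in cancer, and 43.3, 20.6 and 17.0 in nivolumab libraries. Cancer 1 was the lowest of the 9 libraries and the other cancer libraries the highest, so that the cancer group spanned 6.60-fold. The log2 fold change of cancer against sham was 0.51 with an SE of 0.63. Tef had 68.3, 65.0 and 74.2 CPM in sham, 40.9, 154 and 118 in cancer, and 144, 90.7 and 69.9 in nivolumab libraries, which is the same ordering within the cancer group. Hlf had 7.91, 13.1 and 3.60 CPM in sham, 17.0, 42.6 and 14.9 in cancer, and 9.83, 4.27 and 6.17 in nivolumab libraries. Here all 3 cancer libraries, cancer 1 included, were above the other 6. The log2 fold change of Hlf was 1.60 (SE 0.58, edgeR adjusted p = 0.372) for cancer against sham and -1.88 (SE 0.58, edgeR adjusted p = 0.451) for nivolumab against cancer. Enteric neuron and glia markers, summed over 6 genes, were at 35.3, 211 and 57.5 CPM in cancer 1, 2 and 3 and at 6.51 to 82.8 in the 6 other libraries, and 8 dorsal horn neuron markers found in the colon at 74.8, 198 and 46.1 against 12.3 to 74.4. Both were highest in cancer 2, where Hlf and Per1 were also highest. With the enteric marker score as a covariate, an alternative added after seeing the data, the log2 fold change of cancer against sham was 0.87 for Hlf and 0.83 for Per1 (edgeR adjusted p = 0.439 and 0.579), and without cancer 2 it was 0.99 and 0.86, also without passing.

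No colon comparison gave a call by edgeR, for the members or for any of 13445 genes, so percent called was 0 for all of them. At an unadjusted p under 0.05 there were 2 members and 1468 genes in cancer against sham, 1 member and 1323 genes in nivolumab against cancer, and 1 member and 867 genes in nivolumab against sham. DESeq2 also called 0 of 10 members in each, while it called 384, 186 and 144 genes. Groups did not overlap for 2 of 10 members in cancer against sham (19.3% of all genes), for 1 in nivolumab against cancer (15.2%) and for 2 in nivolumab against sham (14.9%), shares near the background. The members' median log2 fold change was 0.51, -0.04 and 0.16 in these comparisons, against 0.00, 0.03 and 0.03 over all genes. The 3 comparisons share their groups in pairs and are not independent.

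Colon cancer 1 decided several of these values. Without it, the log2 fold change of cancer against sham was 1.01 for Dbp, 0.94 for Per3, 0.99 for Tef and -0.50 for Arntl (0.01 with it), with adjusted p from 0.352 to 0.418. For nivolumab against cancer it moved from -0.37 to -0.88 for Dbp and from -0.59 to -0.10 for Arntl. Smooth muscle content, 6515 CPM in cancer 1, 12233 in cancer 2 and 22388 in cancer 3, moved with part of the Dbp values: with the smooth muscle score as a covariate the log2 fold change of Dbp in cancer against sham was -0.05, while that of Hlf was 1.35 and that of Per1 1.16.

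Relations between members within a library did show which libraries differed. Each is given as a log2 difference from the mean of the 9 libraries of the tissue, with no test. In the colon the ratio of Dbp to Arntl, genes of opposite peak times, was -0.20, 0.07 and -0.78 in sham 1, 2 and 3, -2.64, 1.43 and 1.07 in cancer 1, 2 and 3, and 1.13, 0.28 and -0.36 in nivolumab 1, 2 and 3. Sham 1 and sham 2 lay near the tissue mean and sham 3 below it, and cancer libraries lay at both ends with a span of 16.7-fold. The ratio of Nr1d1 to Arntl was -0.13, -0.47 and -0.40 in sham, -1.59, 1.06 and 0.30 in cancer, and 0.86, 0.43 and -0.07 in nivolumab libraries, which puts the same library lowest and the same library highest. The ratio of Per2 to Arntl was -1.70, -0.93 and -0.11 in sham, -1.47, 1.12 and 0.81 in cancer, and 0.75, 1.16 and 0.37 in nivolumab libraries. All nivolumab libraries were above all sham libraries on this ratio, and cancer 1 lay among the sham libraries.

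Not every pair followed that order. The ratio of Dbp to Per2, both driven through E-boxes with Per2 peaking later, was 1.49, 1.00 and -0.67 in sham, -1.17, 0.31 and 0.26 in cancer, and 0.38, -0.88 and -0.72 in nivolumab libraries. Sham 1 and sham 2 stood highest and sham 3 apart from them. Taking the mean of the 8 genes Per1, Per2, Per3, Nr1d1, Nr1d2, Dbp, Tef and Hlf minus the mean of Arntl and Clock, sham libraries had -0.45, -0.40 and -0.67, cancer libraries -1.06, 1.34 and 0.49, and nivolumab libraries 1.01, 0.00 and -0.26. In cancer 2 and in cancer 3 all 8 of these genes were above their tissue mean, and in cancer 1 only 2 were, Per1 and Hlf. The labels do not state the hour at which each library's tissue was taken.

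**Figure D2:**
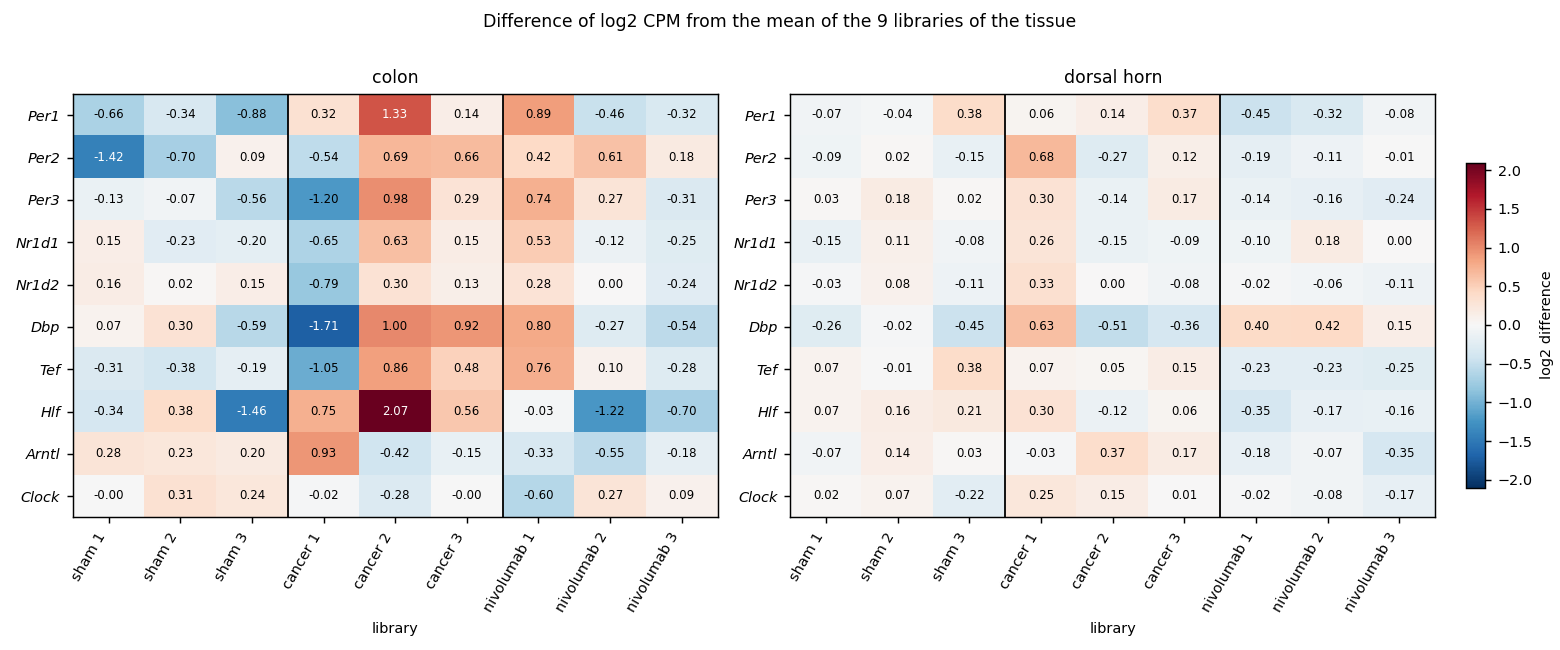
Log2 CPM of each clock gene (rows) in each library (columns) as a difference from the mean of the 9 libraries of the tissue, red above and blue below the mean. In the colon, cancer 1 is low for Dbp at -1.71 and high for Arntl at 0.93 while cancer 2 shows the opposite signs, and in the dorsal horn the differences are smaller, with cancer 1 high for Per2 at 0.68 and Dbp at 0.63.

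In the dorsal horn the members were far steadier, and Tef fell in nivolumab libraries against both other groups. The SD of log2 CPM within groups had a median of 0.15 over the members, from 0.12 for Clock to 0.39 for Dbp, against 0.13 over 11998 genes. Per1, Per3, Hlf, Arntl and Clock had lower values in nivolumab than in cancer libraries without passing the test. Per1, Arntl and Clock passed with the replicate number as a block. Dbp had higher values in nivolumab than in sham libraries, also without passing. Cancer against sham gave no call among the members.

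Of the output factor genes, Tef had 299, 282 and 369.6 CPM in dorsal horn sham 1, 2 and 3, 299, 294 and 315 in cancer 1, 2 and 3, and 243, 243 and 239 in nivolumab 1, 2 and 3. The nivolumab libraries lay within a few CPM of each other and below all 6 others. Tef fell by 0.33 on the log2 scale against cancer (SE 0.09, edgeR adjusted p = 0.0354) and by 0.39 against sham (SE 0.09, edgeR adjusted p = 0.0281), that is 1.25-fold and 1.31-fold lower. Hlf had 68.1, 72.8 and 75.4 CPM in sham, 80.0, 59.8 and 67.6 in cancer, and 50.9, 57.8 and 58.4 in nivolumab libraries. It too was lower in every nivolumab library than in all others, and did not pass (log2 fold change -0.31 against cancer, edgeR adjusted p = 0.0676, and -0.37 against sham, adjusted p = 0.0573). Dbp went the other way. It had 33.3, 39.1 and 29.2 CPM in sham, 61.6, 27.9 and 31.05 in cancer, and 52.6, 53.2 and 44.0 in nivolumab libraries, with cancer 1 the highest of all 9. All nivolumab libraries were above all sham libraries, with a log2 fold change of 0.56 (SE 0.29, edgeR adjusted p = 0.267), and the difference from cancer was 0.31 (SE 0.29, adjusted p = 0.481).

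Same-numbered cancer and nivolumab libraries of the dorsal horn deviated together in all 3 pairs, and with the replicate number as a block 4 of 10 members were called in nivolumab against cancer, all lower, against 22.5% of all genes. They were Per1 (log2 fold change -0.47, edgeR adjusted p = 0.00161), Tef (-0.32, adjusted p = 0.0187), Clock (-0.23, adjusted p = 0.0287) and Arntl (-0.37, adjusted p = 0.0375). Sham libraries did so in only some pairs: r was 0.32, -0.03 and 0.65 with cancer and -0.13, 0.10 and 0.26 with nivolumab libraries. The highest value joined sham 3 and cancer 3. The pairing was read from these same counts, so the calls with the block are not independent of it. Against sham the block gave 2 members, Tef and Per1, against 12.4% of genes.

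The Tef calls without a block were close to the threshold. For nivolumab against cancer the edgeR adjusted p was 0.0518 without sham 1, 0.0666 without cancer 1, 0.0845 without cancer 2, 0.105 without cancer 3, and 0.121, 0.0922 and 0.113 without nivolumab 1, 2 and 3, while the log2 fold change stayed between -0.35 and -0.30. For nivolumab against sham the adjusted p was 0.0706 without sham 1, 0.0550 without cancer 2, and 0.136, 0.0870 and 0.107 without nivolumab 1, 2 and 3, with log2 fold changes between -0.47 and -0.27. Without dorsal horn cancer 1, Dbp passed the test in both comparisons, with log2 fold changes of 0.76 against cancer (adjusted p = 0.00816) and 0.57 against sham (adjusted p = 0.0212), and Arntl passed against cancer at -0.47 (adjusted p = 0.0328). Ganglion markers, and Schwann cell markers (1093 to 1359 CPM summed over 6 genes, at most 946 elsewhere), were higher in every nivolumab library than in all others: adding the ganglion marker score to the fit gave Tef log2 fold changes of -0.54 against cancer and -0.60 against sham (adjusted p = 0.00168 and 0.00169). Within groups this score varied mainly through sham 3 and cancer 3, which were also the libraries with Tef highest in their groups. They mainly set the slope, so the larger falls with the score rest on an extrapolation from them. That fit cannot show how Tef would differ at equal ganglion content. Without the 2 libraries sham 3 and cancer 3, Tef remained past the threshold at -0.30 and -0.24 (adjusted p = 0.00549 and 0.0187).

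Of the Per genes, Per1 had 84.7, 86.1 and 116 CPM in sham, 92.5, 97.9 and 114 in cancer, and 65.1, 70.9 and 84.0 in nivolumab libraries. All nivolumab libraries lay below the 6 others, and sham 3 and cancer 3, the libraries with more ganglion markers in their groups, were the highest. The log2 fold change of nivolumab against cancer was -0.47 (SE 0.14, edgeR adjusted p = 0.0524) and against sham -0.38 (SE 0.14, adjusted p = 0.133). With that ganglion marker score in the fit these were -0.82 and -0.73 and passed (edgeR adjusted p = 0.00116 and 0.00379). The same limit holds, since sham 3 and cancer 3, which mainly set the slope, were also the libraries with Per1 highest. Per2 had 35.1, 37.7 and 33.5 CPM in sham, 59.7, 30.9 and 40.5 in cancer, and 32.8, 34.6 and 37.1 in nivolumab libraries. Cancer 1 stood above the 8 other libraries, which overlapped between groups. Per3 ranged from 69.3 to 77.3 CPM in sham, from 61.9 to 83.9 in cancer and from 57.7 to 61.8 in nivolumab libraries, so that nivolumab did not overlap the other groups, with a log2 fold change of -0.30 against cancer (SE 0.10, edgeR adjusted p = 0.0707).

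The REV-ERB genes did not separate the groups. Nr1d1 had 75.1, 89.9 and 78.9 CPM in sham, 99.9, 75.2 and 78.2 in cancer, and 77.7, 94.03 and 83.4 in nivolumab libraries, a log2 fold change of 0.01 (SE 0.12) for nivolumab against cancer. Nr1d2 ranged from 110.2 to 126 CPM in sham, from 113 to 150.0 in cancer and from 111 to 117 in nivolumab libraries. For both, cancer 1 was the highest library.

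Of the activators, Arntl had 15.4, 17.8 and 16.5 CPM in sham, 15.9, 20.97 and 18.2 in cancer, and 14.3, 15.4 and 12.7 in nivolumab libraries. The nivolumab values were below all cancer values, with a log2 fold change of -0.38 (SE 0.13, edgeR adjusted p = 0.0659), and were below all sham values by a narrow margin, 15.39 CPM in nivolumab 2 against 15.41 in sham 1. Clock ranged from 69.0 to 84.4 CPM in sham, from 81.3 to 95.5 in cancer and from 71.4 to 79.3 in nivolumab libraries, with a log2 fold change of -0.23 against cancer (SE 0.09, edgeR adjusted p = 0.107).

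**Figure D3:**
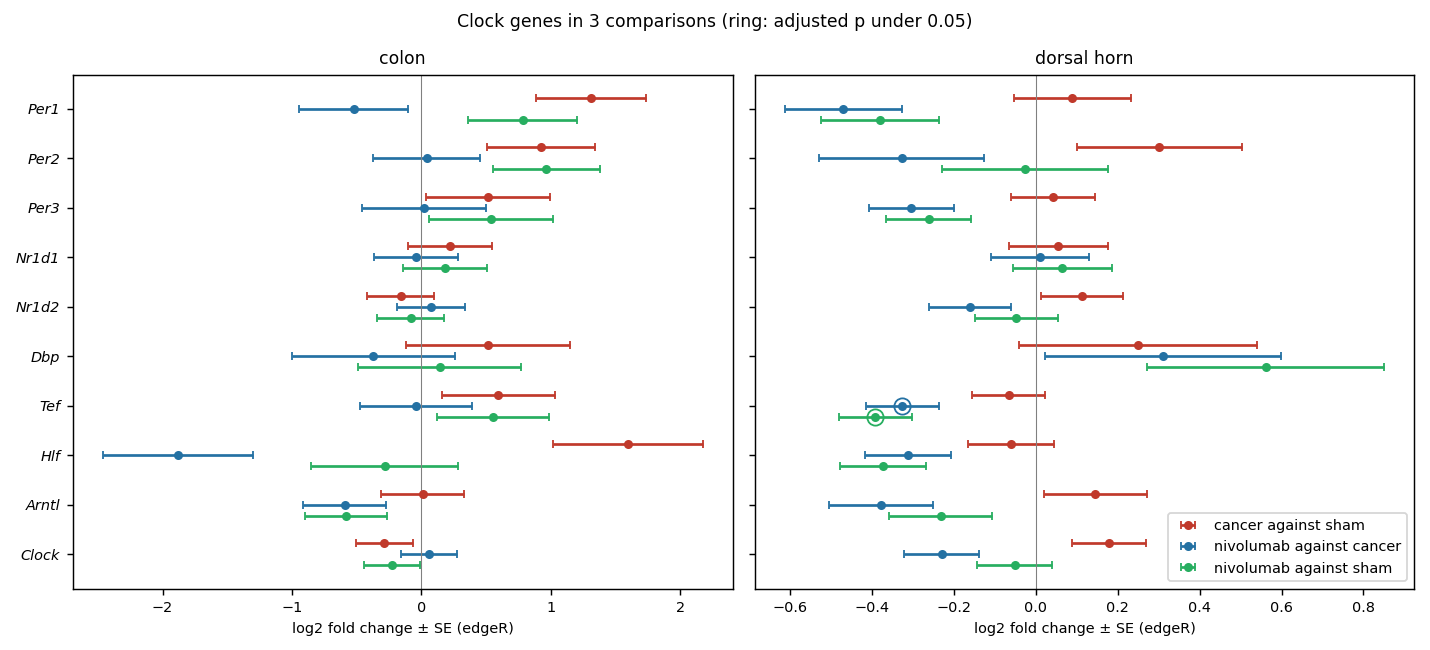
Log2 fold change ± SE of each clock gene in the 3 comparisons, with the colon on the left and the dorsal horn, on a narrower axis, on the right. Rings mark an edgeR adjusted p under 0.05 in the fit without a block: only Tef in the dorsal horn, at -0.33 for nivolumab against cancer and -0.39 for nivolumab against sham, carries one.

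The members were then counted against all genes of the dorsal horn. In cancer against sham edgeR called 0 of 10 members and 44 of 13609 genes (0.323%), with 0 members and 1783 genes at an unadjusted p under 0.05, 0 members by DESeq2, and 0 of 10 members without overlap against 16.8% of genes. In nivolumab against cancer 1 of 10 members was called, Tef, against 17.2% of genes in either direction and 8.6% in the lower direction. Groups did not overlap for 6 of 10 members, all of them lower in nivolumab, against 40.1% of genes in either direction and 19.5% in the lower direction. In nivolumab against sham 1 of 10 was called, again Tef, against 8.51% of genes in either direction and 3.84% in the lower, and 6 of 10 did not overlap, 5 lower and 1 higher, against 35.2% of genes in either direction and 18.1% in the lower. DESeq2 called 5 members in nivolumab against cancer (Per1, Per3, Tef, Hlf and Arntl) against 23.5% of genes, and 2 in nivolumab against sham (Tef and Hlf) against 14.4%, all of them lower. By the edgeR count without a block, the share in nivolumab against cancer lay below that of all genes in either direction and near that in the lower direction. By the DESeq2 count, the blocked count and the count of groups that did not overlap, it lay above the background. The blocked count used a pairing read from these same counts. The members' median log2 fold change was 0.10, -0.31 and -0.14 in the 3 comparisons, against 0.01, 0.00 and 0.00 over all genes, and 8 of 10 were negative in both nivolumab comparisons. A joint test of any difference among the 3 groups passed for Tef alone (edgeR adjusted p = 0.0337, with 13.9% of genes called). Dorsal horn neuron markers summed to 1254 to 1390 CPM in sham, 1445 to 1632 in cancer and 1092 to 1167 in nivolumab libraries, lowest in the group where most members were low, and their part in the result was not tested.

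The relations between members that shifted most in nivolumab libraries were those with Dbp. Against cancer both sides of these ratios moved. The log2 fold change was 0.31 for Dbp, -0.38 for Arntl, -0.33 for Tef and -0.33 for Per2. Against sham it was 0.56 for Dbp, -0.23 for Arntl, -0.39 for Tef and -0.03 for Per2. Of these genes only Tef passed without a block. The ratio of Dbp to Arntl was -0.19, -0.16 and -0.48 in dorsal horn sham 1, 2 and 3, 0.66, -0.88 and -0.52 in cancer 1, 2 and 3, and 0.58, 0.49 and 0.50 in nivolumab 1, 2 and 3, as log2 differences from the tissue mean. All nivolumab libraries were above all sham libraries, and cancer 1 was above them all. The ratio of Dbp to Per2 was -0.17, -0.04 and -0.29 in sham, -0.05, -0.24 and -0.47 in cancer, and 0.59, 0.53 and 0.15 in nivolumab libraries, and on it nivolumab did not overlap either group, cancer 1 included. The ratio of Dbp to Tef, bZIP factors of 1 family, was -0.33, -0.01 and -0.83 in sham, 0.56, -0.56 and -0.50 in cancer, and 0.63, 0.65 and 0.40 in nivolumab libraries. Here again the nivolumab values were close together, and cancer 1 lay among them.

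Pairs without Dbp moved less. The ratio of Nr1d1 to Arntl was -0.08, -0.02 and -0.11 in sham, 0.29, -0.52 and -0.26 in cancer, and 0.08, 0.25 and 0.36 in nivolumab libraries. On this ratio too all nivolumab libraries were above all sham libraries, and cancer 1 lay among the nivolumab values. The 8 genes minus Arntl and Clock gave -0.03, -0.04 and 0.12 in sham, 0.22, -0.39 and -0.05 in cancer, and -0.03, 0.02 and 0.18 in nivolumab libraries, which overlapped between all groups. Over the 9 libraries this measure spanned 1.52-fold in the dorsal horn and 5.29-fold in the colon. Dorsal horn cancer 1 had all 8 of these genes above the tissue mean, and nivolumab 1, 2 and 3 had 1, 2 and 2 above it. Colon cancer 1, which carries the same replicate number, was the colon library with Dbp lowest, and the labels do not say whether the numbers are shared between tissues.

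**Figure D4:**
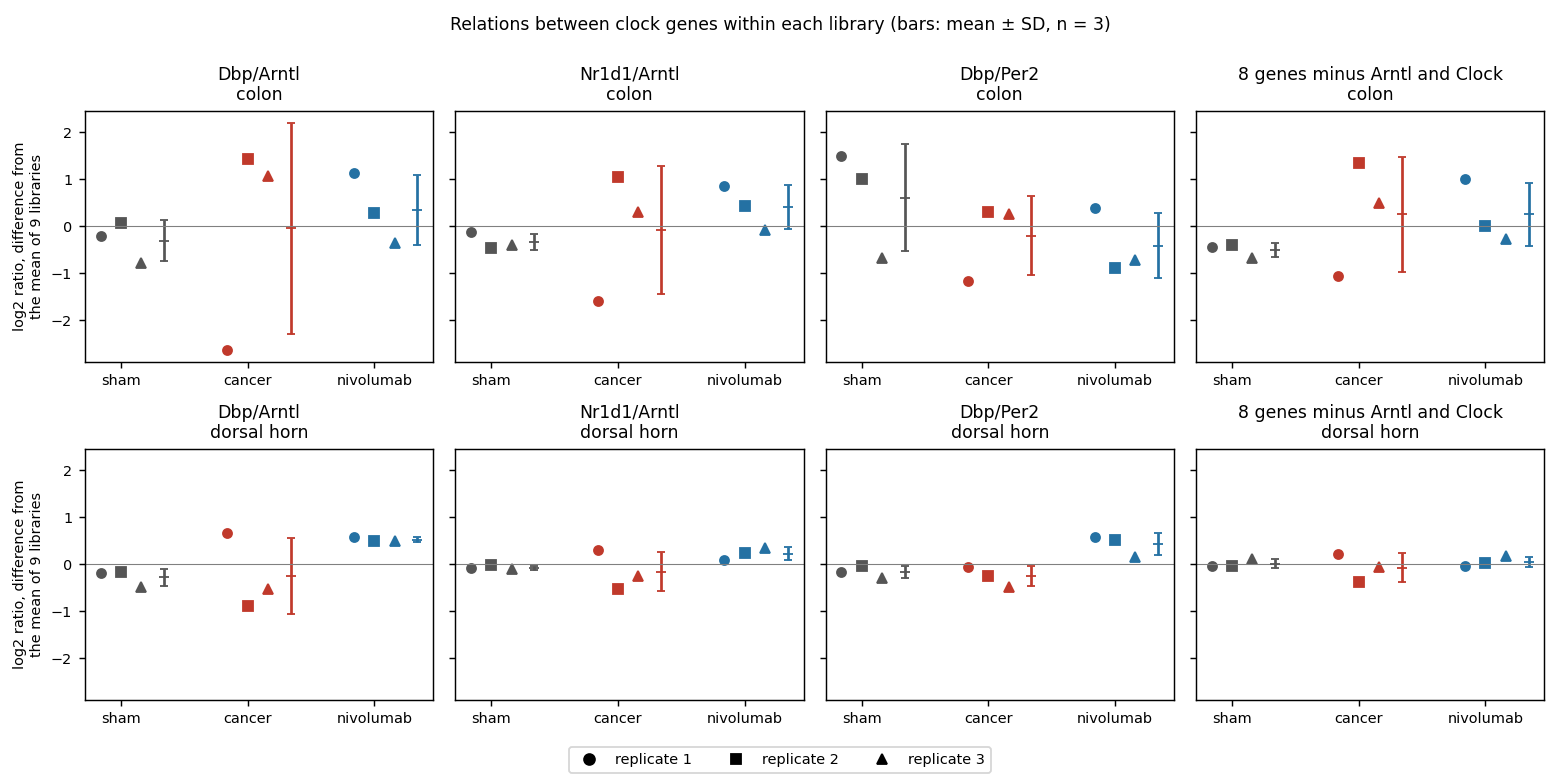
Log2 ratios of clock genes within each library, as differences from the mean of the 9 libraries of the tissue, with the colon in the upper row and the dorsal horn in the lower row. Symbols are replicates and bars the mean ± SD of 3 libraries. Colon cancer 1 is lowest for Dbp/Arntl at -2.64 with cancer 2 and cancer 3 at 1.43 and 1.07, and the dorsal horn nivolumab libraries are above all others for Dbp/Per2 at 0.15 to 0.59.

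The responses of the tissues were then compared in 1 fit of all 18 libraries over 14164 genes. No member differed between dorsal horn and colon in its response to cancer or to nivolumab by edgeR. The call rate was 0 of 10 against 0.155% of genes for cancer and 0 of 10 against 0.127% for nivolumab, with 2 members and 1538 genes, and 1 member and 2325 genes, at an unadjusted p under 0.05. DESeq2 also called 0 of 10 in both. Hlf had the largest differences: its cancer response was lower in the dorsal horn by -1.72 log2 (SE 0.62, edgeR adjusted p = 0.341) and its nivolumab response higher by 1.64 (SE 0.62, adjusted p = 0.219). The cancer response of Per1 differed by -1.27 (SE 0.51, adjusted p = 0.393) and that of Dbp by -0.32 (SE 0.77). For Arntl, the difference was 0.11 (SE 0.35) for cancer and 0.27 (SE 0.35) for nivolumab, each smaller than its SE.

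Arntl was correlated with each of the 9 other members, its partner Clock included, across the 9 libraries of each tissue, with exact permutation p-values adjusted over the 18 relations computed. In the colon 7 of 9 members were negatively related to Arntl. Per3 had Pearson's r = -0.85 (exact permutation p = 0.00392, adjusted p = 0.0475) and Spearman's rho = -0.70 (exact permutation p = 0.0433, adjusted p = 0.195). Tef had r = -0.83 (exact permutation p = 0.00528, adjusted p = 0.0475) and rho = -0.82 (exact permutation p = 0.0108, adjusted p = 0.0830). Without cancer 1 and sham 1, the libraries farthest from the median of Arntl, r was -0.70 for Per3 and -0.64 for Tef. Per2 had r = -0.72 (exact permutation p = 0.0249, adjusted p = 0.149) and rho = -0.82 (exact permutation p = 0.0108, adjusted p = 0.0830), its r was -0.81 without those libraries, and it stayed between -0.83 and -0.68 when single colon libraries were left out. Dbp had r = -0.68 (exact permutation p = 0.0435, adjusted p = 0.154) and rho = -0.45 (exact permutation p = 0.230, adjusted p = 0.376), and its r was -0.27 without those libraries, so the relation of Dbp rests on them. Nr1d2 behaved likewise, with r = -0.69 over all libraries and -0.15 without those 2. Leaving out any of 7 single colon libraries, namely all but nivolumab 2 and nivolumab 3, left 0 relations past the threshold. With group means removed, r was -0.88 for Per3 and -0.89 for Tef. These values rest mainly on the cancer group, where Arntl ranged from 23.3 to 59.7 CPM. In sham it ranged only from 35.8 to 37.9 CPM and in nivolumab libraries from 21.3 to 27.5. Whether the relation holds in each group was not tested.

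In the dorsal horn no relation with Arntl passed the threshold after adjustment. Dbp had r = -0.60 (exact permutation p = 0.0895, adjusted p = 0.230) and rho = -0.67 (exact permutation p = 0.0589, adjusted p = 0.200), and r was -0.56 without cancer 2 and nivolumab 3. Tef and Per1 had the opposite sign, r = 0.55 and 0.54 (exact permutation p = 0.126 and 0.127), and with group means removed these were -0.09 and -0.12. With group means removed, every member but Clock (0.02) was negatively related to Arntl in the dorsal horn. The other values were -0.75 for Per2, -0.61 for Hlf, -0.46 for Per3 and for Dbp, -0.36 for Nr1d2 and -0.22 for Nr1d1. They are a description without a test. Across genes, Per3, Nr1d1, Nr1d2, Dbp and Tef varied together in the colon, with pairwise r from 0.81 to 0.95 over the 9 libraries. These values share libraries and are given as a description.

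Other genes of the clock loop were read beside the members, from a list of 17 that holds Cry genes, Rora, Npas2, Ciart, casein kinases and others. In the colon 0 of 16 tested passed in any comparison. Ciart, a repressor of CLOCK and ARNTL, had 3.77, 3.14 and 5.94 CPM in sham, 6.69, 19.8 and 17.6 in cancer, and 19.98, 9.24 and 8.24 in nivolumab libraries, so that both cancer groups were above all sham libraries without passing (log2 fold change 1.78, SE 0.51, edgeR adjusted p = 0.300 for cancer, and 1.54, SE 0.51, adjusted p = 0.666 for nivolumab). The list's median log2 fold change was 0.38 in cancer against sham, -0.43 in nivolumab against cancer and -0.05 in nivolumab against sham.

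In the dorsal horn 4 of these 17 loop genes passed in nivolumab against cancer, against 17.2% of all genes, and 5 with the replicate block, against 22.5%. Rora, an activator of Arntl, fell by 0.50 on the log2 scale (45.7 ± 4.76 against 64.7 ± 2.70 CPM, n = 3, edgeR adjusted p = 0.00602). Csnk1d, a kinase that acts on PER proteins, rose by 0.19 (edgeR adjusted p = 0.0368) and Timeless rose by 0.88 (adjusted p = 0.0437). Against sham, Rora fell by 0.48 and Timeless rose by 1.46 (edgeR adjusted p = 0.0131 for each). The list's median log2 fold change was -0.17 against cancer and -0.13 against sham. In cancer against sham 0 of 17 passed, with a median of 0.06.

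Genes that cycle in many organs and genes induced by glucocorticoids, which also act on Per1, were read as further lists. Of 9 rhythmic outputs, Nampt, an enzyme of NAD synthesis, rose by 0.35 in dorsal horn nivolumab against cancer, and Lonrf3 and the cell cycle kinase gene Wee1 fell by 0.59 and 0.28 (edgeR adjusted p = 0.0267, 0.0359 and 0.0463), which makes 3 of 9 against 17.2% of all genes, and Lonrf3 fell by 0.66 against sham (adjusted p = 0.0376), where 8.51% of genes passed. The 6 others did not pass against cancer and the list's median was -0.28. Of 10 tested glucocorticoid-induced genes, Zbtb16, a zinc finger repressor gene, passed in the same comparison and fell by 0.77 (adjusted p = 0.0200), all 10 were negative, and the median was -0.73. In the colon none of either list passed, and the median of the glucocorticoid list was 0.91 in cancer against sham with 10 of 10 positive, Zbtb16 having 2.63, 7.14 and 9.98 CPM in sham and 53.1, 88.4 and 41.0 in cancer libraries (edgeR adjusted p = 0.1104). Of 11 immediate early genes, Npas4, a transcription factor gene induced by neuronal activity, fell by 0.73 in dorsal horn nivolumab against cancer (adjusted p = 0.0192) and Nr4a1 rose by 0.86 against sham (adjusted p = 0.0198), with list medians of -0.18 and 0.56. These are 1 of 10 and 1 of 11 genes against 17.2%, and 1 of 11 against 8.51%. With the replicate block 5 of 9, 2 of 10 and 1 of 11 genes of the 3 lists passed in nivolumab against cancer, against 22.5%, and no call made without the block was lost.

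In sham dorsal horn against sham colon 15 of the 17 loop genes passed, 9 higher and 6 lower, against 75.2% of all genes. Bhlhe41, Btrc and Rorb were higher by 4.23, 1.79 and 7.28 log2 (edgeR adjusted p = 3.14e-08, 1.01e-07 and 2.61e-07), Rorb having 0.156 ± 0.135 CPM in sham colon, and Csnk1e was higher by 1.54 (adjusted p = 4.66e-05). The list's median was 1.54, against -0.04 over all genes and 0.49 over the 10 members.

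The genes whose level followed Dbp most closely over the 18 libraries, with tissue means removed, were found among 10610 genes of both tissues. They were Tubb2a with r = 0.86, then Dnajc28, Dedd2, Tubb2b and Mypop with r from 0.80 to 0.81. Of the members, Nr1d1 (r = 0.86), Nr1d2 (0.80) and Per3 (0.80) ranked at 2, 6 and 8 in the same order, and Tef (0.66) at 125. Most opposed to Dbp were Ube2e1 with r = -0.90, then Vangl1, Adss, Lrp5 and Galnt1. Arntl was followed most closely by Adar with r = 0.82, then Pik3cg, Arel1, Galntl6 and Zfp791, and was most opposed by Chd9 with r = -0.82, then Cnep1r1 and Lyrm2. Per3 was the 20th, Dbp the 37th and Tef the 45th most opposed gene to Arntl. Colon libraries, which spread more, weigh most in these values: r of Per3 with Dbp was 0.91 over colon libraries and 0.02 over dorsal horn libraries, and that of Tef with Dbp 0.88 and -0.64.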

How the data were processed

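The authors deposited whole-number counts per gene, 1 table per tissue, with no normalisation. The submitters' processing notes name the build GRCm38 and the tools HISAT2, StringTie, Trimmomatic and FastQC 0.11.5. Their counting step, strand setting and gene filter are not stated. Per the labels' protocols, TRIzol RNA was reverse-transcribed with a SmartScribe kit.

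Counts of each tissue's 9 libraries were fitted with edgeR 4.0.16 in R 4.3.3 (quasi-likelihood test, TMM, filterByExpr by group, robust dispersions), which left 13445 colon and 13609 dorsal horn genes. Tests were two-sided, with Benjamini-Hochberg adjustment over all genes tested and a threshold of 0.05, and SE was derived from the fold change and F. Tissues were compared in 1 joint fit of 18 libraries, which has its own scaling. Log2 CPM used a prior count of 2, and RPKM used GENCODE vM21 exon lengths. Biological coefficients of variation were 0.376 (colon) and 0.170 (dorsal horn). The edgeR test of cancer against sham in each tissue, and of the tissue difference in that response, was first tried on simulated counts. That simulation used a single dispersion for all genes and both tissues. It was lower than that estimated from the real counts of the colon and of the joint fit, and higher than that of the dorsal horn. The trial therefore does not show how well changes could be found in the noisier colon counts. The other statistics were not tried in this way.

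All 10 members are described in every comparison. From other lists up to 4 genes past the threshold were named, or the 2 of smallest p (not all are printed where none passed). Members and lists were chosen with earlier results of these data known. Alternatives were DESeq2 1.42.0, other scalings, no filter, fits of 2 groups, a replicate block, marker scores as covariates and leaving out libraries. The epithelium and enteric score covariates were chosen after seeing the data. The labels number the replicates without saying what a number shares. Same-numbered libraries deviated together (r over 0.1) in 3 of 3 dorsal horn pairs of cancer and nivolumab (r from 0.14 to 0.32), where the numbers were taken to pair the libraries, and not in every pair of any other comparison (3 of 9 colon pairs, 6 of 9 dorsal horn pairs and 0 of 9 pairs across tissues in all). A library correlated best with its own number in 6 of 18 colon and 11 of 18 dorsal horn comparisons. The block was fitted over all 3 groups. Some genes that the rules select or that the lists hold are counted but not reported here by name.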

Additional observations from a re-analysis of the deposited data

How the results depend on the processing

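No value reversed a call in any alternative run. DESeq2 called 384 colon genes in cancer against sham, 186 in nivolumab against cancer and 144 in nivolumab against sham, 366 dorsal horn genes in cancer against sham and 1956 in nivolumab against sham, and 331 and 747 genes for the differences between tissues in the cancer and nivolumab responses. It called 5 members in dorsal horn nivolumab against cancer and 2 against sham (23.5% and 14.4% of genes), and upper-quartile factors gave 4 and 2 (17.5% and 8.38%). With the replicate block the colon gave 1 gene in cancer against sham, the dorsal horn 115, and the differences between tissues 0 and 0. With the block 4 and 2 members were called in dorsal horn nivolumab against cancer and against sham (22.5% and 12.4% of genes), and 4 in sham dorsal horn against sham colon (71.2%). Fits of only the 2 groups gave 7 colon genes in nivolumab against sham, 2 dorsal horn genes in cancer against sham, and 2 members in each dorsal horn nivolumab comparison (15.4% and 9.69% of genes). The ganglion score as a covariate gave 382 dorsal horn genes in cancer against sham, 2085 in nivolumab against sham, and 2 members in each nivolumab comparison (22.3% and 15.3% of genes). Excluding dorsal horn sham 3 and cancer 3 gave 91 genes in cancer against sham and 3 members in nivolumab against cancer (19% of genes). With Arntl and Npas2 as the opposing pair, the dorsal horn difference of the 8 genes between nivolumab and sham was 0.26. With Arntl and Clock the group means lay closer, at 0.05 in nivolumab and 0.02 in sham libraries as differences from the tissue mean. This measure thus depended on the choice of the pair. The causes of these changes were not tested.

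Leaving out 1 library at a time gave these ranges of genes called: 0 to 9, 0 to 2 and 0 to 3 in the 3 colon comparisons, 2 to 125, 771 to 2717 and 95 to 1237 in the dorsal horn, 3 to 93 and 1 to 138 for the differences between tissues, and 10026 to 10390 between sham tissues. Members called ranged from 0 to 2 and from 0 to 3 in dorsal horn nivolumab against cancer and against sham and from 4 to 5 between sham tissues, and relations with Arntl past the threshold from 0 to 2. Fewer libraries in a fit leave fewer degrees of freedom, and where an arm kept 2 libraries the spread was shared with the other groups. Single members that did not pass in either fit changed sign in 93 of 1500 values. Each member had at least 108 counts in every library, and the part of counting error in the spread between libraries was not tested.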
